A study of Mus musculus with 15 samples.

Results

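Deletion of Setd2 in mouse prostate organoids whose Ezh2 was intact is described here across the expressed genes. The comparison sets 2 Setd2 null libraries against 2 control libraries, 4 of the 15 samples of the series, and covers the genes whose mean RPKM (reads normalised to gene length and library size) over the 8 libraries of the deposited table was 1 or more. That rule kept 11338 of 21886 genes, and it uses no difference between the groups. The organoids were grown from prostate epithelial cells of 3-month-old C57BL/6 mice. In the labels' notation the Setd2 null cells were Setd2PC-/-, the Ezh2 null cells Ezh2PC-/- and the double null cells carried both deletions. The control carried neither but is not wild type, because all 4 groups shared a further genetic alteration. The labels do not say which promoter drives the deletions. Each library was an equal-mass pool of RNA from 3 biological replicates. Every p-value thus rests on the spread between such pools, shared over the groups and genes fitted together, and not between mice. A second experiment used 2-month-old C57BL/6 mice with another shared alteration and compared wild-type Ezh2 with the Ezh2 K735R form in 2 libraries each.

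SETD2 is the enzyme that places the third methyl group on lysine 36 of histone H3 (H3K36me3) along the bodies of transcribed genes. That mark recruits splicing, DNA methylation and mismatch repair proteins, and it hinders Polycomb repressive complex 2 (PRC2), whose catalytic subunit EZH2 methylates lysine 27 of the same histone (H3K27me3) to silence genes. SETD2 is a tumour suppressor in several epithelia, and comparing its loss with Ezh2 present and absent asks which of its expression changes depend on EZH2.

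Reads on listed genes, recovered from the deposited values, numbered 29686025 and 29789172 in the control libraries and 32201046 and 34880848 in the Setd2 null libraries. Between 15041 and 15300 genes were above 0 in each of the 4. Across all 8 libraries the first principal component, with 81.2% of the variance, followed the Ezh2 genotype and left control and Setd2 null libraries together. On the third component, with 6.2%, the controls scored 6.04 and 6.54, Setd2 null 1 scored −9.3 and Setd2 null 2 scored −0.94. Setd2 null 2 thus lay between Setd2 null 1 and the controls on that component. In 3 predicted loci, chosen after their values were seen, the Setd2 null libraries stood far apart: LOC108169093 was at 31.6 and 0.148 RPKM, Gm42031 at 34.6 and 0.953, and LOC108168162 at 98.1 and 0.954, against controls of 0.358 and 0.260, 1.75 and 2.11, and 263 and 364.

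The targeted gene was examined first. Setd2 (Entrez 235626, mm10 chromosome 9, 110529296 to 110618633, plus strand) was listed at 16.98 and 16.12 RPKM in control and at 8.75 and 10.3 RPKM in Setd2 null, and the 2 groups did not overlap. The log2 fold change was −0.74 ± 0.148 (SE), with a limma adjusted p of 0.0563, just outside the threshold of 0.05. A gene-level value would also count transcripts without the deleted exons, so this level does not measure the loss of protein. What the remaining reads came from, and how complete the deletion was, was not tested. Ezh2 was at 19.4 and 20.9 RPKM in control and 24.2 and 20.7 in Setd2 null (log2 fold change 0.15, adjusted p = 0.775 by limma). None of the 11 tested PRC2 subunits and none of the 8 tested H3K36 methyltransferases other than Setd2 was called. Jarid2, a PRC2 cofactor, had the smallest p of its list at 3.81 and 4.02 RPKM in control and 2.67 and 2.66 in Setd2 null (adjusted p = 0.164 by limma).

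Of 11338 genes, limma called 121 at an adjusted p under 0.05, which is 1.07% of those tested. Higher in Setd2 null were 43 (0.379%) and lower were 78 (0.688%). The control and Setd2 null libraries did not overlap in any of the 121. Among all 11338 genes, both Setd2 null libraries lay above both controls in 2101 and below both in 2683. The 121 were called from these same libraries, so their separation adds no support. At least 2-fold on the log2(RPKM + 1) scale, 20 of the called genes rose and 23 fell. That scale adds 1 RPKM to every value and understates the change of low genes. Called genes were mostly of modest level: the median control mean was 6.68 RPKM in the higher and 5.4 RPKM in the lower set, beside 9.62 RPKM over all genes. The median log2 fold change over all genes was −0.02, and 1313 genes had an unadjusted p under 0.05. The number called changed with each library left out. Such a fit keeps only 1 pool in that group, so a lost call need not rest on the pool removed. Only 15 genes were called when the 4 libraries were fitted alone, and 17 of the 121 calls held without any single library (among them Car12, Cd200, Dapl1, Dmtn, Entpd8, Ifi205, Lbp, Lmcd1, Mmp13, Mnda, Ptprn, Rpl29, Tmprss11g, Wfdc18 and Xlr3b).

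**Figure D1:**
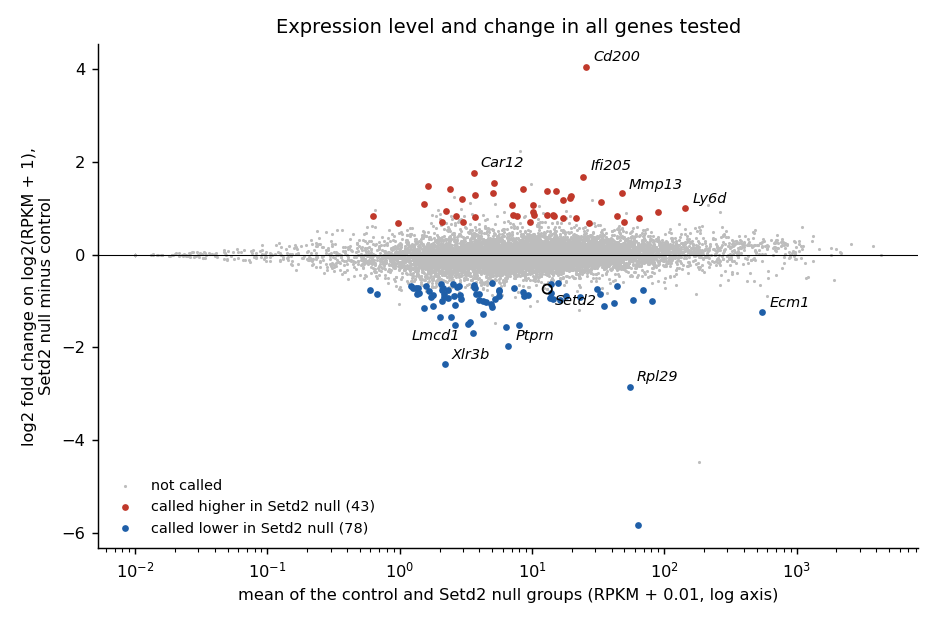
Each point is 1 of the 11338 tested genes, with the mean of the control and Setd2 null groups in RPKM on a log axis and the log2 fold change on the log2(RPKM + 1) scale. The 43 red genes were called higher and the 78 blue genes lower in Setd2 null, the circle marks Setd2, and Cd200 lies at 4.05 and Rpl29 at −2.85.

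Among surface proteins that engage receptors on immune cells, Cd200 showed the largest rise of the 43. CD200 is a membrane glycoprotein whose receptor on myeloid cells restrains their activation. Cd200 (Entrez 17470, chromosome 16, 45382111 to 45409061) was at 1.01 and 3.49 RPKM in control 1 and 2 and reached 43.6 and 54.7 RPKM when Setd2 was deleted. The groups lay far apart beside the spread within each, the log2 fold change was 4.05 ± 0.333 (SE) and the limma adjusted p was 0.00251. H60c, a ligand of the activating receptor NKG2D, rose from 0.468 and 0.238 to 3.95 and 1.89 RPKM (log2 fold change 1.49). Its call was lost without control 1 (adjusted p = 0.118 by limma), control 2 (0.202) or Setd2 null 1 (0.0751). The remaining 18 tested genes of the list were not called, and the list's median log2 fold change was 0.10. Ceacam1, at 128 and 146 RPKM in control and 205 and 202 in Setd2 null, came next (adjusted p = 0.109 by limma).

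The interferon system runs from sensors of foreign nucleic acid, through interferon receptors and the STAT and IRF factors, to effectors that block viral replication. None of 10 sensors and none of 18 receptors and transducers was called, with medians of 0.15 and 0.12. Of 42 tested effectors 3 rose and 0 fell, and the median was 0.42. All 42 had a positive log2 fold change, beside 46.2% of all genes tested. Oasl1, an oligoadenylate synthetase-like protein, rose from 10.8 and 11.6 to 24.7 and 30.3 RPKM (log2 fold change 1.22 ± 0.137 SE, adjusted p = 0.00424 by limma). Ifit3b, of the family that binds viral RNA, rose from 5.82 and 6.41 to 11.4 and 17.03 RPKM (log2 fold change 1.07). Rsad2, which encodes viperin, rose from 9.54 and 8.32 to 15.97 and 18.2 RPKM (log2 fold change 0.86). Both Setd2 null libraries were above both controls in these 3 genes, and in 26 of the 42, beside 2101 of all 11338 genes tested. Ifit3b has near-identical neighbours in its cluster, and reads could be shared among them.

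The 2 leading interferon-inducible genes belong to the PYHIN family, proteins with a pyrin and a DNA-binding HIN domain encoded in a cluster on chromosome 1. Ifi205 (Entrez 226695, chromosome 1, 174011998 to 174031755) was at 10.96 and 11.3 RPKM in control and 37.5 and 37.6 in Setd2 null, a log2 fold change of 1.67 ± 0.128 (SE, adjusted p = 0.000574 by limma). The gene listed as Mnda (Entrez 381308, named Ifi211 in RefSeq) was at 8.04 and 8.05 RPKM in control and 22.4 in both Setd2 null libraries, a log2 fold change of 1.37 (adjusted p = 0.00109 by limma). Replicates of these genes differed far less than the groups did. Members of this cluster resemble each other closely, so the division of reads between them is uncertain. Of the other 3 tested members none was called: Ifi204 was at 9.199 and 7.79 RPKM in control and 13.0 and 16.1 in Setd2 null (adjusted p = 0.0597 by limma), Ifi202b was at 74.8 and 64.4 against 98.1 and 74.4, and Aim2, the DNA sensor of the inflammasome, at 2.51 and 2.58 against 1.63 and 1.75.

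MHC class I proteins display peptides to T cells. Of 24 tested genes of that pathway 1 rose, the nonclassical class I gene H2-T22, from 36.6 and 37.8 to 58.5 and 64.2 RPKM (log2 fold change 0.70, adjusted p = 0.0251 by limma). The median was 0.38, with 21 of 24 positive. B2m, the shared light chain, was at 829 and 909 RPKM in control and 1135 and 1517 in Setd2 null (adjusted p = 0.194 by limma). The class I genes are near-identical in places, so their separate values are uncertain. Several of these calls were lost when 1 library was left out, which keeps only 1 pool in its group. Oasl1 was lost without control 1 (adjusted p = 0.0652 by limma), H2-T22 without control 1 (0.245), control 2 (0.224) or Setd2 null 2 (0.059), and Ifit3b without control 1 (0.229), control 2 (0.176) or Setd2 null 2 (0.0753). Rsad2 was lost without any 1 of the 4, at adjusted p-values from 0.0743 to 0.234.

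Promoters of 5 called interferon-inducible genes are shown because interferon acts on such genes through a known sequence that these 5 windows hold, the interferon-stimulated response element. Its core was searched as GAAANNGAAA on both strands (TTTCNNTTTC is the reverse complement) in the 250 bases before each RefSeq start (GRCm38.p6, the same assembly as mm10). It stood in 978 of 32851 promoter windows (2.98%) and in 278 of the 9111 tested genes with a window (3.05%). Among the genes called higher, 6 of the 33 with a window held it, and among those called lower 2 of 59. In the effector list 19 of 36 held it. The 200 bases before the start of the 5 interferon-inducible ones among those 6 read as follows, from 5′ to 3′ along the gene, with the matches in capitals.
Ifi205: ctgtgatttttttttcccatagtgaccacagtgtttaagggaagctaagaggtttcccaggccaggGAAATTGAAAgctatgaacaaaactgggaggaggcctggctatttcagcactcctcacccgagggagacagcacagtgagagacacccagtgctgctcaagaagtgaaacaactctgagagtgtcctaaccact
Mnda: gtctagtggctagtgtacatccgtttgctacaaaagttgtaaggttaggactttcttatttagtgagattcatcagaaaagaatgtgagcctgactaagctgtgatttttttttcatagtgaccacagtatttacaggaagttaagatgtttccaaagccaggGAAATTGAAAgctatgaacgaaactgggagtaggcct
Ifit3b: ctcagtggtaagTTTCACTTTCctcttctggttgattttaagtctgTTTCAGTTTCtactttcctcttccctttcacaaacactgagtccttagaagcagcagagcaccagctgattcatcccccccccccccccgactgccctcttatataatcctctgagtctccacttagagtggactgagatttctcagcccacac
Rsad2: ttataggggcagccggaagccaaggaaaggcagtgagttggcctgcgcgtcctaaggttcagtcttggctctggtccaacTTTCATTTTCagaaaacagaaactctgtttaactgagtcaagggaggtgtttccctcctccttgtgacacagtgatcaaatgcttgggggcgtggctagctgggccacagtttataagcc
H2-T22: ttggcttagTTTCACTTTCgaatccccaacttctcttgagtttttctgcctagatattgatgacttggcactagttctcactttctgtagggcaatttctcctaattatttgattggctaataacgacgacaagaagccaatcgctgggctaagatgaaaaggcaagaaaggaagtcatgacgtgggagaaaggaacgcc
In build coordinates they are chr1:174031756-174031955 for Ifi205, chr1:173913047-173913246 for Mnda, chr19:34607757-34607956 for Ifit3b, chr12:26456453-26456652 for Rsad2 and chr17:36042743-36042942 for H2-T22, with Ifit3b on the plus strand and the others on the minus strand. Matches began 134 bases before the start in Ifi205, 37 in Mnda, 188 and 154 in Ifit3b, 120 in Rsad2 and 191 in H2-T22. The windows of Ifi205 and Mnda shared an unbroken run of 25 bases that holds the match. The sixth gene was Mmp13, described below. Oasl1, the other called effector, has a window in which these letters were not found. A match is a stretch of letters, and no binding was measured here.

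A few genes expressed in keratinising or stratified epithelium rose, though most of the cornified envelope list was not called. Ivl encodes involucrin, a scaffold of the cornified envelope, and went from 6.12 and 7.25 to 23.9 and 14.8 RPKM (log2 fold change 1.37 ± 0.197 SE, adjusted p = 0.0148 by limma). Prr9, a proline-rich protein gene near Ivl on chromosome 3, rose from 3.51 and 4.89 to 14.4 and 11.1 RPKM (log2 fold change 1.41). Tmprss11g, a transmembrane serine protease gene of squamous epithelia, rose from 2.17 and 2.73 to 7.89 and 7.30 RPKM (log2 fold change 1.32, adjusted p = 0.00168 by limma). Ly6d, a surface protein of stratified epithelium, rose from 89.1 and 100.7 to 219.8 and 163.9 RPKM (log2 fold change 0.995). In Ivl, Prr9 and Ly6d the first Setd2 null library was the higher one. Of the 37 tested genes of the cornified envelope list 2 rose and 0 fell, with 20 positive and a median of 0.07. Tgm1, the transglutaminase that crosslinks the envelope, was at 1.69 and 2.10 RPKM in control and 3.61 and 4.26 in Setd2 null (adjusted p = 0.107 by limma). The call of Ivl was lost without control 1 (0.163) or control 2 (0.102), that of Ly6d without control 1 (0.3), control 2 (0.207) or Setd2 null 1 (0.13), and that of Prr9 without control 1 (0.126) or Setd2 null 1 (0.0986).

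The other leading rises were in genes of varied function. Mmp13 (chromosome 9, 7272514 to 7283333), a collagenase, rose from 27.2 and 26.1 to 68.9 and 68.3 RPKM, a log2 fold change of 1.33 ± 0.113 (SE, adjusted p = 0.00109 by limma). Car12, a membrane carbonic anhydrase, rose from 1.12 and 1.05 to 5.58 and 6.68 RPKM (log2 fold change 1.77 ± 0.125 SE, adjusted p = 0.00033 by limma). It was the 1 gene called among 6 tested carbonic anhydrases. Slc39a2, a zinc importer, rose from 2.14 and 2.04 to 6.42 and 10.1 RPKM. Entpd8, which hydrolyses extracellular nucleotides, rose from 1.41 and 2.07 to 5.50 and 5.80 RPKM. Upp1, uridine phosphorylase, rose from 9.41 and 10.8 to 27.5 and 21.4 RPKM. Cyp2b10, a xenobiotic-metabolising cytochrome P450, went from 4.16 and 4.09 to 11.97 and 7.95 RPKM. Dmtn, an actin-bundling protein outside the naming rule and chosen after its values were seen, rose from 0.742 and 0.972 to 3.47 and 4.42 RPKM. Epgn, an EGF receptor ligand, was called at a low level, from 0.445 and 0.540 to 1.51 and 1.32 RPKM. Ctla2a, a cysteine protease inhibitor with a close copy in Ctla2b, rose from 24.5 and 17.02 to 46.3 and 45.2 RPKM, and its values are uncertain for that reason. Slc39a2 was not called without control 2 (adjusted p = 0.059 by limma), Cyp2b10 without control 1 (0.172) or control 2 (0.186), Upp1 without control 1 (0.155), control 2 (0.101) or Setd2 null 1 (0.097), and Ctla2a without control 2 (0.224), Setd2 null 1 (0.164) or Setd2 null 2 (0.0934). Epgn was lost without any 1 library (0.06 to 0.251). Car12, Mmp13 and Entpd8 kept their calls without any single library.

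**Figure D2:**
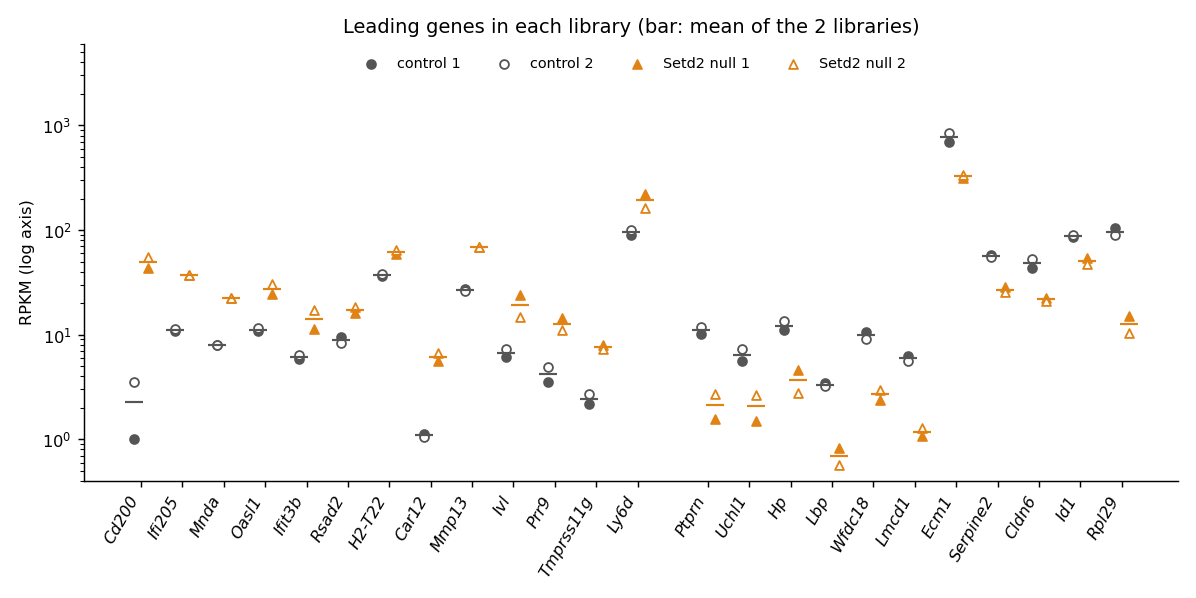
RPKM on a log axis of 13 genes called higher and 11 called lower, with circles for the control libraries, triangles for the Setd2 null libraries and bars for the mean of 2 libraries. Cd200 moved from 1.01 and 3.49 to 43.6 and 54.7 RPKM and Rpl29 from 103.6 and 89.4 to 14.9 and 10.4, and in every gene shown the circles and triangles do not overlap.

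Among the falls, 2 genes of neurosecretory cells stood near the head of the list. Ptprn encodes a receptor-type phosphatase of dense-core secretory granules and fell from 10.2 and 11.9 to 1.57 and 2.68 RPKM (log2 fold change −1.96 ± 0.175 SE, adjusted p = 0.00109 by limma). Uchl1, a ubiquitin hydrolase abundant in neurons and neuroendocrine cells, fell from 5.58 and 7.25 to 1.51 and 2.66 RPKM (log2 fold change −1.28, adjusted p = 0.0336 by limma). Both Setd2 null libraries were below both controls in each. Only 3 of 20 genes of the neuroendocrine list passed the filter on low values, and the defining markers Chga and Nkx2-1 were at 0 in all 4 libraries, with Syp between 0.0366 and 0.0532 RPKM. The third, Ncam1, was at 1.34 and 1.38 RPKM in control and 0.782 and 1.96 in Setd2 null. Uchl1 was not called without control 1 (0.126), control 2 (0.261) or Setd2 null 1 (0.188). In bulk RNA, fewer cells of a type and less RNA per cell cannot be told apart.

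Secreted proteins of mucosal defence and the acute phase fell in 3 of 25 tested members of that list, with 0 higher and a median of −0.02. Wfdc18, a whey acidic protein family member, fell from 10.6 and 9.18 to 2.40 and 2.99 RPKM (log2 fold change −1.56 ± 0.135 SE, adjusted p = 0.00109 by limma). Hp, haptoglobin, which binds free haemoglobin, fell from 10.97 and 13.5 to 4.62 and 2.79 RPKM (log2 fold change −1.51). Lbp, the lipopolysaccharide-binding protein, fell from 3.42 and 3.20 to 0.828 and 0.566 RPKM (log2 fold change −1.35, adjusted p = 0.00167 by limma). Wfdc18 and Lbp were called without any single library, and Hp was lost without control 1 (0.0619) or control 2 (0.122).

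Single genes of secreted matrix proteins and protease inhibitors fell, while none of 26 tested matrix and adhesion receptor genes was called (median −0.18). Ecm1, a secreted matrix glycoprotein, was the most abundant gene called, at 698 and 855 RPKM in control and 315.5 and 339 in Setd2 null (log2 fold change −1.24 ± 0.153 SE, adjusted p = 0.00774 by limma). Serpine2, an inhibitor of thrombin and plasminogen activators, fell from 57.4 and 54.9 to 28.3 and 25.4 RPKM (log2 fold change −1.04). Mmp11, stromelysin 3, fell from 3.14 and 3.21 to 1.45 and 1.46 RPKM. Among 25 tested matrix proteases and inhibitors 1 rose (Mmp13) and these 2 fell, with a median of −0.07. Ecm1 was lost without control 2 (0.108) and Serpine2 without control 1 (0.126) or control 2 (0.104). Mmp11 was lost when any 1 of the 4 was left out (0.0592 to 0.176).

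Of 30 tested genes of TGF-beta, activin and BMP signalling 2 fell and 0 rose, and 3 had a positive log2 fold change, with a median of −0.30. Id1, a direct BMP target that blocks basic helix-loop-helix factors, fell from 85.4 and 89.2 to 54.5 and 47.4 RPKM (log2 fold change −0.77, adjusted p = 0.0442 by limma). Bambi, a decoy receptor of the pathway, fell from 2.17 and 1.95 to 0.673 and 0.756 RPKM (log2 fold change −0.83, adjusted p = 0.0133 by limma). Id1 was lost without any 1 library (0.278 and 0.339 without control 1 and 2, 0.0972 and 0.105 without Setd2 null 1 and 2). Bambi was lost without control 1 (0.128), control 2 (0.101) or Setd2 null 1 (0.0674).

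Further falls came from genes of varied function. Lmcd1, a LIM domain protein that represses GATA factors, fell from 6.30 and 5.67 to 1.07 and 1.28 RPKM (log2 fold change −1.68 ± 0.119 SE, adjusted p = 0.00033 by limma). Cldn6, a tight junction protein of early epithelia, fell from 43.4 and 53.3 to 22.6 and 20.8 RPKM and was the 1 gene called among 29 of epithelial junctions. Mpp2, a membrane scaffold of the guanylate kinase family, went from 6.61 and 7.90 to 2.46 and 3.05 RPKM. Rab44, a Rab GTPase, went from 5.70 and 8.27 to 2.43 and 3.09 RPKM. Cyp2f2, a cytochrome P450 best known from lung club cells, went from 6.94 and 5.71 to 3.11 and 2.17 RPKM. Hoxd12 was the 1 gene called of 26 tested Hox cluster genes, at 5.35 and 4.99 RPKM in control and 2.25 and 2.57 in Setd2 null. Dapl1, which lies outside the naming rule and was chosen after its values were seen, fell from 4.38 and 4.30 to 1.005 and 0.734 RPKM. Lmcd1 and Dapl1 were called without any single library. Cldn6 was not called without control 2 (adjusted p = 0.0995 by limma). Mpp2 and Hoxd12 were lost without either control (0.0929 and 0.175, 0.128 and 0.102) or Setd2 null 1 (0.11 and 0.0742), Cyp2f2 without control 1 (0.202), control 2 (0.102) or Setd2 null 2 (0.0592), and Rab44 without control 2 (0.227), Setd2 null 1 (0.188) or Setd2 null 2 (0.0703).

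Some of the genes that fell belong to families with near-identical copies. Whether the counting moved reads between copies could not be checked here and was not tested. Rpl29, a ribosomal protein gene at chromosome 9, 106428783 to 106431568, fell from 103.6 and 89.4 to 14.9 and 10.4 RPKM (log2 fold change −2.85 ± 0.168 SE, adjusted p = 0.000123 by limma). The predicted locus Gm8210 on chromosome 1, which the table lists separately, rose from 10.4 and 11.5 to 35.0 and 21.6 RPKM (log2 fold change 1.26, adjusted p = 0.0248 by limma). It lies outside the naming rule, was chosen after its values were seen, and was not called without control 1 (0.203), control 2 (0.157) or Setd2 null 1 (0.0755). Xlr3b, an X-linked member of a repeated gene family and also chosen after its values were seen, was at 5.77 and 2.92 RPKM in control and listed at 0 in both Setd2 null libraries. Among the 80 tested ribosomal protein genes Rpl29 was the 1 called.

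Genes around Setd2 itself were counted because Rpl29 lies on the same chromosome, 4.1 Mb away. Within 10 Mb of Setd2, 6 of 156 tested genes were called and all 6 were lower, which is 3.85% beside 0.673% called lower on the other chromosomes. Rpl29, for which the region was looked at, is itself among the 6, so its part in that share was fixed by the choice. Within 20 Mb, 6 of 222 were called (2.7%), all lower. Beyond 20 Mb on chromosome 9, 3 of 419 were called and none of the 3 was lower. The genes called within 10 Mb included Rpl29, Pccb, Sema3b, Nme6 and Glb1. Glb1, the lysosomal beta-galactosidase, fell from 18.8 and 19.7 to 11.7 and 12.8 RPKM (log2 fold change −0.61, adjusted p = 0.0433 by limma). Pccb, a mitochondrial propionyl-CoA carboxylase subunit, went from 7.98 and 7.26 to 3.76 and 3.49 RPKM. Sema3b, a secreted semaphorin, went from 3.65 and 4.22 to 1.47 and 1.98 RPKM, and Nme6, a nucleoside diphosphate kinase, from 3.02 and 2.75 to 1.33 and 1.23 RPKM. The median over the 156 genes was −0.06, so the region as a whole lay near 0. Sema3b was lost without control 1 (0.118), control 2 (0.222) or Setd2 null 1 (0.0986), and Glb1, Nme6 and Pccb without any 1 of the 4, at up to 0.34, 0.266 and 0.177.

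**Figure D3:**
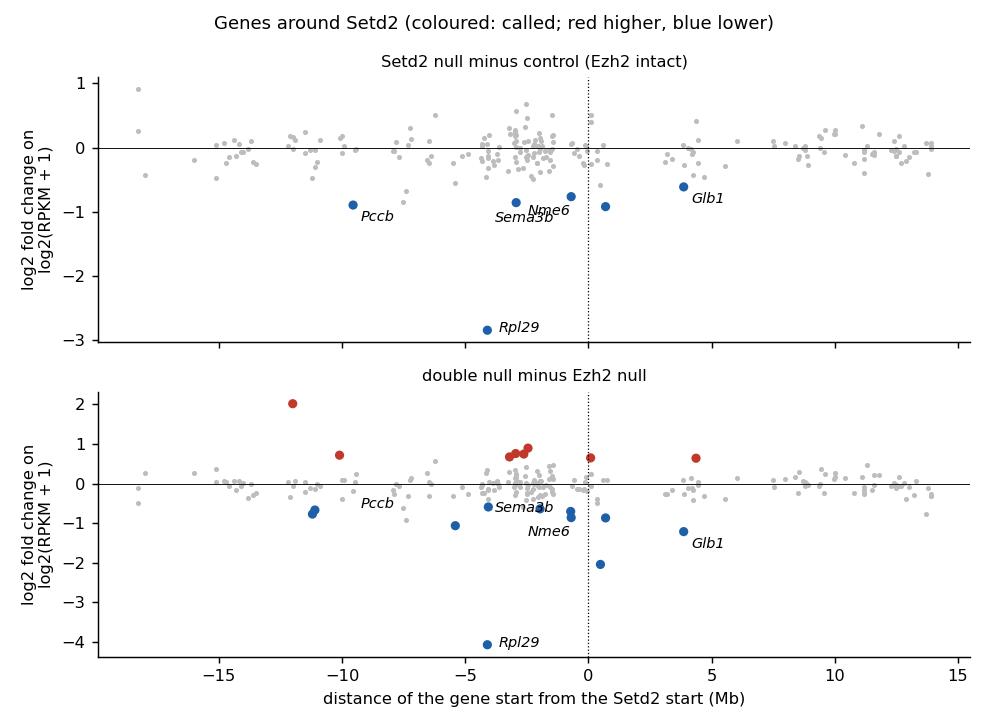
Log2 fold changes on the log2(RPKM + 1) scale of the tested genes on each side of Setd2, by the distance of their start from the Setd2 start in Mb, for Setd2 null minus control above and double null minus Ezh2 null below. Coloured points were called, red higher and blue lower: within 10 Mb these are 6 lower genes above, and 6 higher and 9 lower genes below.

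Beyond the called genes, some lists lay away from the controls, several of them mainly in 1 of the 2 Setd2 null pools. For each list the median over its genes of log2(RPKM + 1) minus the mean of the 4 libraries was taken in each library, and it moved by at most 0.018 over all genes. The mitosis list (32 tested, 0 called, median log2 fold change 0.30, all positive) was at −0.092 and −0.215 in the controls, 0.389 in Setd2 null 1 and −0.095 in Setd2 null 2. Of its genes, 31 of 32 in Setd2 null 1 and 15 in Setd2 null 2 were above both controls. Over all 11338 genes tested, these counts were 4489 and 3717. DNA replication genes (38 tested, 0 called, median 0.31, 36 positive) were at −0.15 and −0.143 in the controls, 0.309 in Setd2 null 1 and 0.003 in Setd2 null 2. Above both controls were 34 of the 38 in Setd2 null 1 and 27 in Setd2 null 2. The ribosomal protein list (median 0.22, 75 of 80 positive) was at 0.308 in Setd2 null 1 and −0.086 in Setd2 null 2, with controls of −0.036 and −0.199. The median of the replication list was thus above both controls in both pools. The medians of the mitosis and ribosomal lists were above both controls in the first pool. In the second they lay within the range of the controls, although 15 of the 32 mitosis genes were above both controls there. Cdc20, the mitotic activator of the anaphase-promoting complex, was at 15.8 and 15.6 RPKM in control and 24.9 and 19.6 in Setd2 null. Gins1, a subunit of the replicative helicase, had the smallest p of the replication list (1.60 and 1.98 against 3.44 and 3.43 RPKM, adjusted p = 0.0778 by limma).

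Interferon and antigen presentation genes leaned on the other pool. The effector list was at −0.246 and −0.175 in the controls, −0.01 in Setd2 null 1 and 0.491 in Setd2 null 2. Above both controls were 26 of its 42 genes in Setd2 null 1 and 41 in Setd2 null 2. Over all 11338 genes tested, 4489 and 3717 were. The MHC class I list was at −0.288 and −0.083 in the controls, −0.053 in Setd2 null 1 and 0.431 in Setd2 null 2. Irf7, the factor that amplifies the interferon response, was at 49.1 and 61.4 RPKM in control and 52.4 and 123 in Setd2 null. The PYHIN list was above the controls in both, at 0.345 and 0.498 beside −0.248 and −0.462. Some lists of signalling and development were lowest in Setd2 null 1 and less far below both controls in Setd2 null 2. The TGF-beta list was at −0.292 and 0.057, with controls of 0.104 and 0.189. The Notch pathway was at −0.242 and −0.028 (controls 0.052 and 0.145). Polycomb-repressed developmental genes were at −0.228 and 0.045 (controls 0.073 and 0.138). In Setd2 null 2, 17 of 30 TGF-beta, 8 of 14 Notch and 8 of 23 Polycomb-repressed genes were below both controls, beside 4696 of all 11338. Of 49 lists, 34 had no member called, among them splicing factors (38 tested, median −0.01), the readers and demethylases of H3K36, glycolysis and androgen response. Polycomb-repressed developmental genes had a median of −0.13 with 4 of 23 positive, and Sox11, at 2.64 RPKM in both controls and 1.17 and 1.53 in Setd2 null, had the smallest p (adjusted p = 0.0624 by limma). The lists were not tested as sets, and no difference between the 2 pools was tested.

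**Figure D4:**
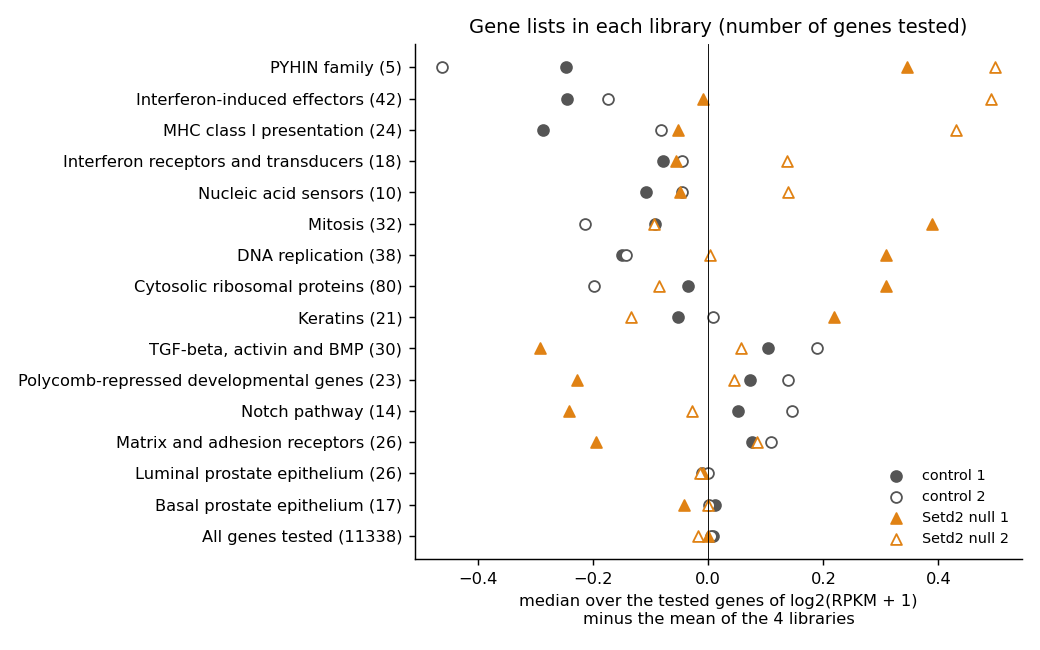
For 15 gene lists and all genes, each symbol is the median over the tested genes of log2(RPKM + 1) minus the mean of the 4 libraries, in 1 library (circles control, triangles Setd2 null, filled for library 1). Mitosis stands at 0.389 in Setd2 null 1 and −0.095 in Setd2 null 2, interferon-induced effectors at −0.01 and 0.491, and all genes between −0.018 and 0.009.

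The epithelial label was checked against markers of the cells that a prostate culture could hold. Luminal markers summed to 5920 to 6120 RPKM in control and 6000 to 7280 in Setd2 null, and basal markers to 3980 to 4010 and 3840 to 4220, with 0 members called in either list. The secretory luminal genes Pbsn, Msmb, Spink1, Trpm8, Folh1 and Nkain4 were at 0 in all 4 libraries. Leukocyte markers summed to 91 to 109 RPKM, nearly all from Cd14 and Cd68, which epithelial cells also express, while Ptprc, Cd3e, Adgre1, Lyz2 and Mpo were at 0 in all 4. Stromal markers summed to 8.16 to 13.6 RPKM, endothelial markers to 0.609 to 0.697, and seminal vesicle and bladder markers to 29.1 to 37.2 with 6 seminal vesicle genes at 0. Neuroendocrine markers, at 18.6 and 22.2 RPKM in control and 5.35 and 8.74 in Setd2 null, moved with the groups through Ptprn and Uchl1. Neuronal and glial markers summed to 3.07 and 3.0 RPKM in control and 2.49 and 1.47 in Setd2 null, mostly Map2, a neuronal microtubule protein, at 2.41 and 2.17 against 1.72 and 0.713 (adjusted p = 0.252 by limma), and their part in the falls of Ptprn and Uchl1 was not tested.

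H3K36me3 covers gene bodies, so the change was also described by gene length. Over 4 equal groups from the shortest to the longest genes, with median lengths of 4.9, 15.1, 33 and 94.6 kb, the median log2 fold change was 0.01, −0.00093, −0.01 and −0.07. Called higher were 19, 12, 7 and 5 genes and called lower 24, 22, 11 and 21. The longest group held the fewest rises. Of the 78 falls it held 21, beside 24 in the shortest group. The median control level was 8.37 RPKM in the longest and 10.6 RPKM in the shortest.

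The same deletion was compared in libraries without Ezh2, double null against Ezh2 null, which share no library with the comparison above. There limma called 736 of 11338 genes (6.49%), 430 higher and 306 lower. Of the 43 genes called higher with Ezh2 intact, 34 (79.1%) had the same direction without Ezh2, 17 were called higher and 0 lower. Of the 78 called lower, 42 (53.8%) had the same direction, 19 were called lower and 10 higher. Over all genes 61.8% had the same direction. Rises of Oasl1 (3.07 and 3.12 RPKM before and 9.54 and 11.2 after the Setd2 deletion), Rsad2 (0.989 and 0.789, 4.70 and 3.97), Tmprss11g (1.84 and 1.72, 10.5 and 9.89), Ivl (22.8 and 22.6, 52.6 and 46.2) and Car12 (4.90 and 4.65, 12.8 and 12.9) were called in both. So were the falls of Rpl29 (278 and 304, 16.1 and 16.6), Wfdc18 (53.3 and 46.9, 10.3 and 9.99), Serpine2 (216 and 191.5, 83.6 and 72.3) and Glb1 (26.5 and 27.7, 11.5 and 10.7).

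Whether the effect differed between the 2 backgrounds was tested as the interaction, called for 294 of 11338 genes (2.59%) and for 49 of the 121. These 49 were 14 of the rises and 35 of the falls. The 121 were chosen by a contrast that enters the interaction with its sign reversed, which favours such calls and opposite signs, so their share is given as a description and nothing is read from it beside the 2.59%. Cd200 was at 3.02 and 2.89 RPKM in the Ezh2 null pools and at 3.23 and 2.57 in the double null pools, so its rise of 4.05 had no counterpart there (−0.03, interaction −4.08, adjusted p = 0.00465 by limma). Without Ezh2, Mmp13 reached at most 0.0663 RPKM, Ifi205 0.623 and Mnda 0.628, which leaves little room for a change on this scale. Some falls turned into rises: Id1 was at 48.7 and 53.2 RPKM with Ezh2 deleted and at 90.1 and 112 with both deleted (interaction 1.74, adjusted p = 0.00204 by limma), and Dapl1 at 7.35 and 8.99 and then 20.2 and 20.04. Gm8210 was at 0 and 0.0593 RPKM, and then at 47.8 and 57.9. Ptprn reached at most 0.371 RPKM, Lmcd1 0.122 and Cldn6 0.44 without Ezh2.

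Values of the same genes were also read in the second experiment, where Setd2 was not deleted and was at 138.6 and 131 CPM (counts normalised to library size) in the wild-type Ezh2 libraries and at 136.2 and 133.2 in those of Ezh2 K735R. K735R replaces a lysine of EZH2 by arginine. With edgeR 1 gene of 13203 was called there (0.00757%), Rpl29, which went from 226.5 and 195.4 CPM to 22.2 and 24.7 (log2 fold change −3.17, edgeR adjusted p = 0.0288). At an unadjusted p under 0.05 there were 1220. The count called was 285 with DESeq2, 644 and 1595 without wild-type Ezh2 library 1 and 2, and 0 without either K735R library. The 43 genes that rose in Setd2 null had a value there in 41 cases, and 36 of the 41 (87.8%) were positive, beside 48.7% of all genes. Of the 77 with a value among those that fell, 66 were negative and 11 (14.3%) positive. Both K735R libraries lay above both wild-type libraries in 30 of the 41 (73.2%, beside 20.7% of all genes) and below them in 42 of the 77 (54.5%, beside 21.6%). Cd200 was at 0.2 and 0.7 CPM in wild-type Ezh2 and at 49.0 and 65.7 in K735R, Dmtn at 0.701 and 1.91 and then 16.2 and 22.4, Tmprss11g at 0.767 and 1.40 and then 9.68 and 7.27, and Ivl at 6.37 and 5.63 and then 35.3 and 24.4. None of these 4 passed edgeR's test (adjusted p from 0.187 to 0.232), and Ptprn, at 2.34 and 9.64 and then 6.10 and 7.34, showed no separation. The mice differed from those of the first experiment in age and in the alteration they share, and what the common directions come from was not tested.

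**Figure D5:**
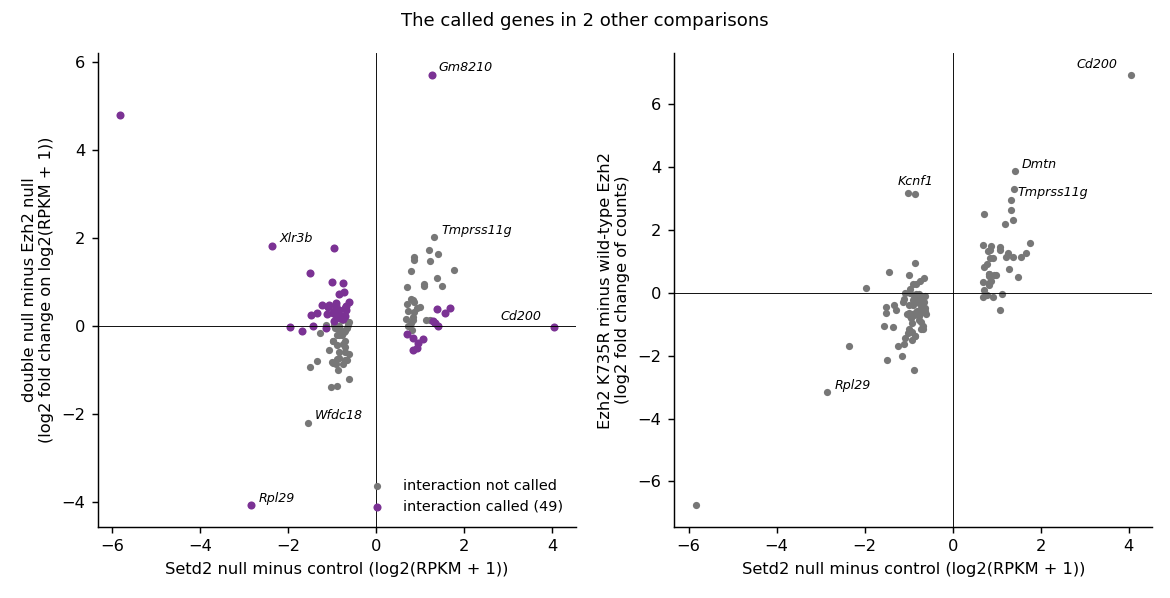
The 121 genes called in Setd2 null against control (x axis, log2 fold change on log2(RPKM + 1)) against their log2 fold change in double null minus Ezh2 null (left) and in Ezh2 K735R minus wild-type Ezh2 (right). On the left the 49 genes with a called interaction are purple, and on the right 36 of 41 rises lie above 0 and 66 of 77 falls below it.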

How the data were processed

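RNA sequencing libraries of mouse prostate organoids were compared in 6 groups of 2. Per the submitters' processing notes, the series used mm10, Bowtie, RSEM, BWA and SICER, with no role or version given. Strandedness and the treatment of reads shared between genes are not given there. The H3K27me3 libraries were not analysed here, and the alteration shared by all groups and a few genes are not reported here.

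The authors deposited RPKM values for the first 4 groups, in a table of 21886 genes, and counts per gene for the K735R experiment, in a table of 14301. Spreadsheet software had turned 27 and 19 symbols into date numbers, which were named from their Entrez identifiers, and 21653 identifiers of the first table matched the reference. Each gene's RPKM values were whole multiples of 1 read: among 13748 genes detected in every library, 13743 (99.96%) gave whole reads to within 0.01, and the depth follows from that step. Reads on listed genes were 97.3% to 98.7% of the library totals, and count totals ran from 28831228 to 37482322. Depth was greater in the libraries without Ezh2 (46915648 to 54230765 reads on listed genes).

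Genes averaging 1 RPKM or more across the 8 libraries entered the fit on log2(RPKM + 1), in which limma 3.58.1 fitted all 4 groups together with trended, robust variance moderation. Contrasts were Setd2 null minus control, double null minus Ezh2 null and their difference. For the counts, edgeR 4.0.16 ran the robust quasi-likelihood test with TMM factors and its filter on low counts. P-values were two-sided, adjusted by the Benjamini-Hochberg method over all genes tested and called at 0.05. The fits were tested on simulated data. R was version 4.3.3.

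The genes, the 49 gene lists and the naming rule were chosen with earlier results of these data known. The rule named Setd2 and Ezh2, the 15 highest and 15 lowest log2 fold changes among called genes with separate libraries and at least 5 RPKM in the higher group (no predicted genes, clone names, pseudogenes or microRNAs), every called list member, up to 3 members of a list by p, and called genes within 10 Mb of Setd2. Ifi202b, Aim2, B2m and Irf7, outside that rule, were also chosen after their values were seen. Lists are described by counts and medians only. Alternatives were other scalings, filters and a pseudocount of 0.1, fits of the compared groups alone, a block for the replicate number, edgeR on the recovered reads, DESeq2 1.42.0 for the counts, and leaving out each library. Positions are those of mm10 and promoters are RefSeq's.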

Additional observations from a re-analysis of the deposited data

Results flagged for a closer look

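For 49 of the 121 genes called in Setd2 null against control, the Setd2 effect differed by limma's interaction test between organoids with and without Ezh2. The interaction is the log2 fold change of double null minus Ezh2 null, less that of Setd2 null minus control. Choosing genes by the second contrast favours interaction calls among them. Among the named genes that rose with Ezh2 intact it was −4.08 for Cd200, −1.42 for Dmtn, −1.38 for Cyp2b10, −1.27 for Slc39a2, −1.27 for Mmp13, −1.27 for Ifi205, −1.17 for Entpd8, −0.99 for Mnda and −0.90 for H2-T22. It was 4.45 for Gm8210, whose rise was larger without Ezh2. Among the named genes that fell it was 1.01 for Bambi, 1.09 for Mpp2, 1.21 for Hoxd12, 1.37 for Cldn6, 1.56 for Rab44, 1.56 for Lmcd1, 1.71 for Ecm1, 1.74 for Id1, 1.95 for Ptprn, 2.73 for Dapl1 and 4.18 for Xlr3b. Rpl29 was the exception among the named falls, at −1.22, since it fell further without Ezh2. Mmp13, Ifi205, Mnda, Ptprn, Lmcd1 and Cldn6 were under 1 RPKM without Ezh2, which leaves little room for a change there on this scale. Without Ezh2, 10 of the 43 rises and 8 of the 78 falls averaged under 1 RPKM in both groups, beside 178 of all 11338 genes. Groups of 2 libraries are too small for a check of single outlying samples.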

How the results depend on the processing

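The 121 calls of Setd2 null against control became 56 after quantile normalization, 67 without a filter, 62 at a mean of at least 5 RPKM, 15 with only the 2 groups compared, and 43 when the change also had to be 2-fold. EdgeR on the recovered reads called 97, of which 78 were shared. With the replicate block limma called 231 (99 higher), of which 120 were shared, and Setd2 itself then passed (log2 fold change −0.74, adjusted p = 0.0437). The labels do not say that numbers pair samples: deviations correlated at 0.358 between control and Setd2 null, 0.933 between Ezh2 null and double null, and 0.105 to 0.155 between the other groups, over only 2 numbers. Leaving out 1 library gave 24 to 132 calls. The share higher was 35.5% in all, 44.6% after quantile normalization, 40.2% after median-ratio scaling, 46.7% with only the 2 groups, and up to 50% without 1 library. The 736 calls of double null against Ezh2 null became 1078 with the replicate block, 997 without a filter, 465 at 5 RPKM, 399 with only those groups and 361 to 472 without 1 library. The 294 interaction calls became 146 at 5 RPKM, 469 with the replicate block, 194 with edgeR and 142 to 278 without 1 library. For K735R, DESeq2 called 285, the replicate block gave 4, and leaving out 1 library gave 0 to 1595. Where an arm kept 1 library, it was assumed to vary like the other groups. The cause of these differences was not tested. In all settings run, 11 genes were called, among them Car12, Cd200, Dapl1, Ifi205, Lbp, Mmp13, Mnda, Rpl29, Tmprss11g and Wfdc18. Dmtn, Lmcd1, Ptprn and Xlr3b were not tested in every setting, so they could not be among the 11, and they lost no call where tested.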

Other observations

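A further 7 called genes of varied function were chosen after their values were seen. Ido1, which starts tryptophan breakdown, rose from 5.76 and 8.38 to 12.9 and 14.1 RPKM (log2 fold change 0.87). Crabp2, which carries retinoic acid to its receptor, rose from 12.2 and 12.3 to 21.0 and 22.9 RPKM (0.79), and Klk8, a kallikrein protease, from 5.45 and 4.16 to 8.52 and 10.6 RPKM (0.86). Akap12, a scaffold for protein kinase A, fell from 79.1 and 75.1 to 36.4 and 40.8 RPKM (−0.98), and Dpp4, a surface peptidase, from 3.36 and 2.27 to 0.798 and 0.713 RPKM (−1.11). Gpx3, the secreted glutathione peroxidase, fell from 3.42 and 3.92 to 1.54 and 1.46 RPKM (−0.90), and Il1rl1, the interleukin-33 receptor, from 2.75 and 3.99 to 1.004 and 1.55 RPKM (−0.93). Each of these 7 calls was lost without at least 1 library, and the highest adjusted p by limma was then 0.291 for Ido1, 0.33 for Crabp2, 0.315 for Klk8, 0.0929 for Akap12, 0.163 for Dpp4, 0.125 for Gpx3 and 0.26 for Il1rl1.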
